A study of Mus musculus with 2 samples.

Results

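To describe the antibody-secreting cells of the bone marrow, droplet barcodes rich in immunoglobulin transcripts were taken from 1 control (Ctrl) and 1 *Map4k4*-cKO (cKO) single-cell RNA-seq library. A barcode became a member when *Jchain*, *Igkc* and *Igha* together held at least 10% of its unique molecular identifiers (UMIs, each of which tags 1 captured RNA molecule). This gave 92 members among 9965 kept barcodes of the Ctrl library and 42 among 6718 of the cKO library, 134 of 16683 in all. The members were thus selected on measured values of these 3 genes, and the levels of those genes are given below as description only. Both libraries came from mice aged 13 to 14 weeks, with 2 parts of c-Kit+ hematopoietic stem and progenitor cells mixed with 3 parts of bone marrow cells that had passed red cell lysis. The cKO mice were Mx1-Cre *Map4k4* f/f, and their littermate controls, which carried Mx1-Cre as well, are written in the methods as Mx1-Cre *Map4k4*-/-, all on a C57BL/6 background. Mx1-Cre is driven by an interferon-inducible promoter that is not restricted to a blood lineage, and floxed alleles were deleted with poly I:C, which is itself an inducer of interferon. Whether the controls received poly I:C and how many animals entered each library is not given in the sources used here. With 1 library per group no difference between them has a replicate check, no p-value is given, and an effect of the genotype cannot be told apart from any other difference between these libraries.

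Plasma cells are the end stage of the B lineage. They give up most B cell surface genes, devote their endoplasmic reticulum (ER) to antibody synthesis and persist for long periods in bone marrow niches. An antibody joins paired heavy chains, whose constant gene sets the isotype (*Ighm* for IgM, *Ighg2b* and *Ighg2c* for IgG, *Igha* for IgA), with paired kappa or lambda light chains, and the J chain encoded by *Jchain* links IgA and IgM into secreted polymers. *Xbp1* encodes the transcription factor that widens the secretory pathway, downstream of the unfolded protein response (UPR), the programme with which a cell answers a load of unfolded protein in the ER.

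Members formed 0.923% of the kept barcodes in the Ctrl library (exact Clopper-Pearson 95% interval, 0.745 to 1.13) and 0.625% in the cKO library (0.451 to 0.844). All intervals here cover counting error only. The Ctrl members nearest to it had 10.7% and 14.9% of UMIs on the 3 genes and the nearest other barcodes 8.77% and 7.78%, whereas in the cKO library the members nearest to it had 10.9% and 11.0% and the other barcodes 9.84% and 8.87%. The share of a Ctrl member ran from 10.7% through a median of 52.5% to 76.5%, and that of a cKO member from 10.9% through 33.3% to 70.9%. In the remaining barcodes the medians were 0.110% and 0.00701%. Members held a median of 6776 UMIs (536 to 32165) in Ctrl and 7783.5 (556 to 49721) in cKO, against 4098 and 6236.5 in the other barcodes. The libraries as deposited held 71527701 and 64393950 UMIs, of which the members contributed 826177 and 517271. No barcode sequence was a member in both libraries, although 3010 deposited barcode sequences occurred in both, among them those of 34 Ctrl and 18 cKO members.

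**Figure D1:**
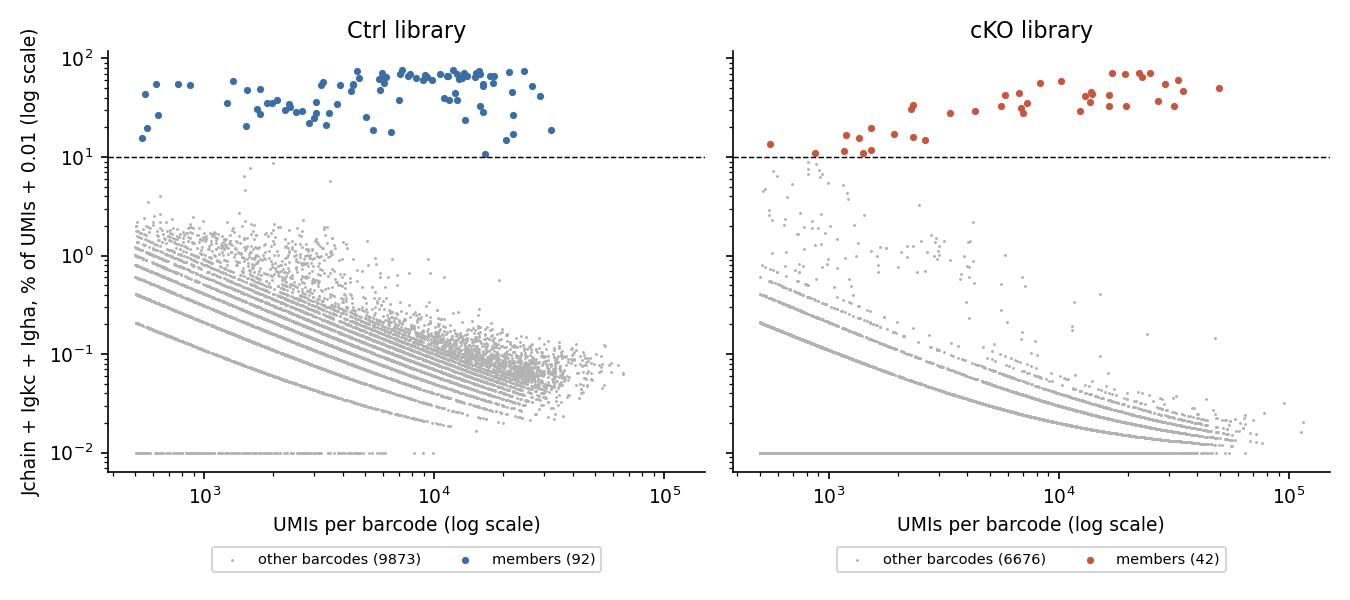
Share of UMIs on *Jchain*, *Igkc* and *Igha* (vertical axis, percent plus 0.01, log scale) against UMIs per barcode (horizontal axis, log scale) for every kept barcode, with members in color above the dashed line at 10%. The 92 Ctrl members spread over all depths at shares of 10.7% to 76.5%. The cKO members nearest to the line lie at low depth and continue into other barcodes of up to 9.84%.

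Among the 3 genes of the rule, *Igkc* (GRCm38, chr6:70726435-70726966, the kappa constant gene) had the highest median, 27.7% of a member's UMIs in Ctrl (0.0230 to 54.2) and 30.2% in cKO (10.3 to 58.3). *Igha* (chr12:113254830-113260236, minus strand) had a median of 20.02% in Ctrl (0.0189 to 41.7) and of 0% in cKO (0 to 27.3). *Jchain* (chr5:88519809-88527891, minus strand) stood at 3.07% (0.572 to 9.01) and 1.70% (0.0409 to 9.35), and every member of both libraries had at least 1 *Jchain* UMI. Ranges of all 3 genes overlapped between the libraries, and *Igha* was the gene whose typical level separated them.

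To check the name plasma cell on genes that the rule did not use, 14 genes of the plasma cell programme were counted in each barcode. At least 3 of the 14 were detected in 84 of 92 Ctrl members and 36 of 42 cKO members, including all 55 and 27 members with 5000 UMIs or more. The other kept barcodes reached 3 genes in 12.9% of cases in Ctrl (12.3 to 13.6) and 8.30% in cKO (7.65 to 8.99), and barcodes with at least 5% of UMIs on the neutrophil genes *S100a8* and *S100a9* in 1.93% and 1.09%. The 8 Ctrl members that fell short had 536 to 3499 UMIs, and the 6 cKO members that fell short had 556 to 1531. For these 8 and 6 shallow members the name rests on immunoglobulin transcripts alone. In addition, 8 Ctrl members and 14 cKO members, 12 of the latter among the 15 under 5000 UMIs, had 5% or more of UMIs on *S100a8* and *S100a9*, and 7 and 8 of them carried 3 or more plasma cell genes. Some of these 14 genes also stand in marker lists that the study drew from these same libraries.

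Every one of the 14 plasma cell genes was more abundant in members than in the other barcodes of the same library, beyond a log2 ratio of 1 in both. Levels are given as CPM, the UMIs of a gene per 1000000 UMIs outside the immunoglobulin genes, so that antibody transcripts do not dilute the rest. As background, among genes with at least 10 UMIs in the members, 16.4% of 5362 genes exceeded a log2 ratio of 1 in Ctrl and 35.5% of 2793 genes did so in cKO. The median log2 ratio of the 14 genes was 6.004 in Ctrl and 8.59 in cKO, beside 0.16 and 0.56 over all genes compared. Their summed level was 11274 CPM in Ctrl members against 275 CPM in the other barcodes, and 14246 against 181 CPM in cKO.

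Among the receptors and surface genes, *Tnfrsf17*, which encodes the survival receptor BCMA, had 276 CPM in Ctrl members and 0.327 CPM elsewhere, a log2 ratio of 9.72 (9.06 to 10.44), and 245 against 0.157 CPM in cKO (10.61, 9.61 to 11.76). *Sdc1*, the syndecan known as CD138 by which plasma cells are sorted, had log2 ratios of 7.43 and 9.51. *Tnfrsf13b*, the receptor TACI that other B lineage cells also carry, differed less, by 3.22 and 3.37, with 52.3 and 27.7 CPM in the other barcodes.

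Regulators of the plasma cell state followed. *Prdm1*, which encodes the repressor Blimp-1 that shuts down the B cell programme, had log2 ratios of 7.97 and 8.77. For *Irf4* they were 5.31 and 8.04. *Xbp1* (chr11:5520659-5525893) reached 2580.4 CPM in Ctrl members and 3246 CPM in cKO members, and its log2 ratios of 4.57 (4.47 to 4.67) and 5.05 (4.93 to 5.16) were smaller, and it was also measured at 109 and 98.3 CPM in the other barcodes. *Mzb1*, an ER cochaperone that aids IgM and IgA assembly, had log2 ratios of 7.27 and 11.77, and its level in the other barcodes was 14.5 CPM in Ctrl and 1.22 CPM in cKO. *Pou2af1*, a coactivator shared with B cells, behaved alike, with 15.5 and 0.706 CPM outside the members and log2 ratios of 4.52 and 9.76. The remaining members of the list, *Derl3*, *Txndc5*, *Tent5c*, *Eaf2*, *Fkbp11* and *Slamf7*, ranged from 3.14 for *Fkbp11* to 9.24 for *Derl3* in Ctrl and from 3.18 to 9.90 in cKO, where *Eaf2* came highest of these 6.

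**Figure D2:**
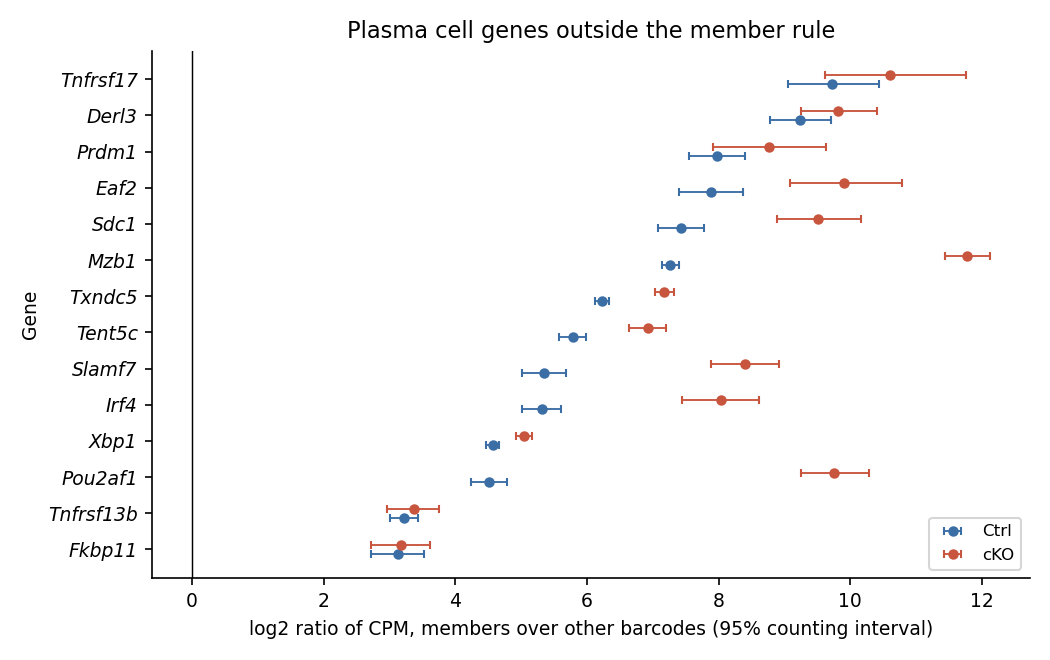
Log2 ratio of CPM in members over other barcodes (horizontal axis, bars are 95% counting intervals) for the 14 plasma cell genes, none of which entered the member rule, in the Ctrl (blue) and cKO (red) library. All points lie beyond 3, and *Mzb1*, *Pou2af1*, *Slamf7* and *Irf4* show the widest gaps between libraries.

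Each barcode was also thinned to 500 UMIs outside the immunoglobulin genes. The share of barcodes with a UMI was then higher in members than in other barcodes for 14 of 14 genes in Ctrl and 13 of 14 in cKO. The exception was *Prdm1*, found in 0 of 41 cKO members, with an exact upper limit of 8.60%, and in 3 of 6668 other barcodes. *Xbp1* was detected in 68.2% of Ctrl members (57.2 to 77.9) and 61.0% of cKO members (44.5 to 75.8), against 4.554% and 4.604% of other barcodes and 3.90% and 4.22% of neutrophil barcodes, whose median depths were 3484.5 and 4931.5 UMIs. *Mzb1* was detected in 56.5% and 68.3% of members and in 1.29% and 0.210% of other barcodes. Thinning left out 7 and 1 members and 14 and 8 other barcodes. Before thinning *Xbp1* was found in 91.3% and 85.7% of members and in 37.3% and 37.1% of other barcodes.

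Across the whole transcriptome, the 10 highest ratios among genes with at least 50 CPM in the members of both libraries, ranked by the lower of the 2 libraries' ratios, combined known and less familiar plasma cell genes. *Tnfrsf17*, *Derl3*, *Prdm1* and *Eaf2* were joined by *Nuggc*, a nuclear GTPase of B cells, with 16 UMIs in cKO members and none in the other 6676 barcodes. *Cacna1s* and *Cacna1h*, which encode pore subunits of voltage-gated calcium channels, had 56.3 and 123 CPM in Ctrl members and 125 and 200.4 CPM in cKO members, against at most 0.355 CPM elsewhere. *Epcam*, a homophilic adhesion molecule best known from epithelium, had log2 ratios of 8.19 and 10.08, the trafficking gene *Hid1* 7.66 and 9.83, and the noncoding *Kcnmb4os2* 8.78 and 11.78. The 5 lowest were the globin gene *Hbb-bs* (-2.67 and -3.45) and the granulocyte genes *Ms4a3*, *Slfn4*, *Ctsg* and *Elane* (-2.04 to -2.35 in Ctrl and -2.85 to -3.81 in cKO).

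To ask which antibody classes the members made, the heavy chain constant gene with the most UMIs was taken for each. *Igha* led in 83 of 92 Ctrl members, or 90.2% (82.2 to 95.4), and in 8 of 42 cKO members, or 19.0% (8.60 to 34.1). *Ighg2b* (chr12:113302965-113307933, minus strand) led in 3 Ctrl members, or 3.26%, and in 18 cKO members, or 42.9% (27.7 to 59.0). *Ighm* (chr12:113418558-113422730, minus strand) led in 2 and 12 members, which is 2.17% and 28.6% (15.7 to 44.6), and *Ighg2c* in 4 and 4, or 4.35% and 9.52%. The counting intervals of *Igha*, *Ighg2b* and *Ighm* did not overlap between the libraries and those of *Ighg2c* did. Here and below such intervals take each barcode as independent, although 13 of the 18 cKO *Ighg2b* members shared the variable gene *Ighv2-9-1*. Overlap or its absence is therefore no test of a difference between the groups. No member was led by *Ighg1*, *Ighg3*, *Ighd* or *Ighe*, which allows shares of up to 3.93% in Ctrl and 8.41% in cKO.

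**Figure D3:**
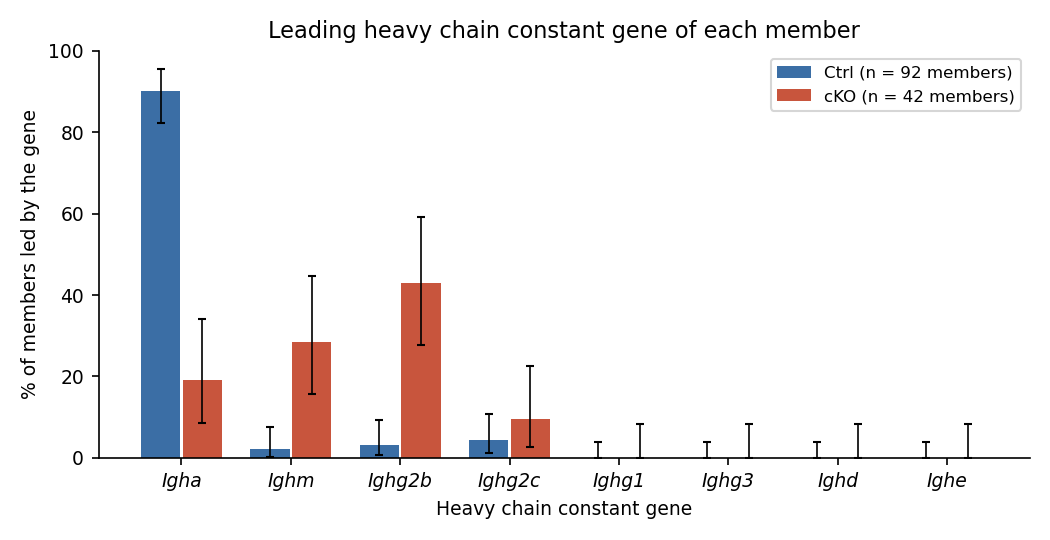
Percent of members (vertical axis) whose most abundant heavy chain constant gene is the one named on the horizontal axis, in Ctrl (n = 92 members, blue) and cKO (n = 42 members, red), with exact 95% binomial intervals. *Igha* leads 90.2% of the Ctrl members and 19.0% of the cKO members, where *Ighg2b* leads 42.9%.

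Counted over UMIs instead of barcodes, *Igha* supplied 86.1% of the heavy chain constant UMIs of Ctrl members and 35.8% of those of cKO members. *Ighm* supplied 3.47% and 30.8%, *Ighg2b* 2.38% and 26.1%, and *Ighg2c* 8.04% and 7.19%. The cKO isotypes differed in depth, with medians of 20916.5 UMIs for *Igha*, 9806 for *Ighm*, 2467 for *Ighg2b* and 2295 for *Ighg2c*. Of the 18 *Ighg2b* members of the cKO library, 12 had at least 5% of UMIs on *S100a8* and *S100a9* and 6 carried fewer than 3 plasma cell genes. Without the members at 5% or more on these neutrophil genes (8 in Ctrl and 14 in cKO), *Igha* led 91.7% of the Ctrl members and 25% of the cKO members, and *Ighg2b* 2.38% (0.290 to 8.34) and 21.4% (8.30 to 41.0), intervals that overlap.

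The rule counts *Igha* but no other heavy chain gene, so an IgA member can pass on its heavy chain and an IgG or IgM member must pass on its kappa chain and J chain. With all constant genes and *Jchain* counted at the same 10%, the Ctrl library stayed at 92 and the cKO library went from 42 to 53. The 11 added barcodes held 571 to 1149 UMIs, 7 were led by *Ighg2b*, none had 3 plasma cell genes, and all 11 had 5% or more on the neutrophil genes. *Igha* then led 15.1% of the cKO members. At the stricter share of 50%, which 47 Ctrl and 10 cKO members met, *Igha* led 95.7% and 80%, but a higher share on these 3 genes favors *Igha* by construction. With all constant genes and *Jchain* at 50%, which 52 and 26 barcodes met, *Igha* led 90.4% (79.0 to 96.8) and 30.8% (14.3 to 51.8), while *Ighg2b* led 1.92% (0.0487 to 10.3) and 23.1% (8.97 to 43.6), which overlap. The 12 *Ighm* members of the cKO library all had at least 3 plasma cell genes and held 5615 to 34557 UMIs, against 2 *Ighm* members in Ctrl.

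*Jchain* was compared across isotypes. In Ctrl its median share was 3.20% in *Igha* members (0.634 to 9.01), 3.39% in the 2 *Ighm* members, 1.53% in the 3 *Ighg2b* members (0.572 to 3.38) and 1.17% in the 4 *Ighg2c* members (1.05 to 1.59), so that the *Igha* range held all the others but the lowest *Ighg2b* member. In cKO it was 4.36% in *Igha* members (2.91 to 9.35), 1.91% in *Ighm* members (0.0409 to 7.05), 3.07% in *Ighg2c* members (0.710 to 3.95) and 0.884% in *Ighg2b* members (0.499 to 1.72). The *Igha* and *Ighg2b* members of cKO did not overlap in this measure. As *Jchain* and *Igha* both entered the rule, these values describe the members only.

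Kappa light chains led in 87 of 92 Ctrl members, with *Iglc1* in 3 and *Iglc3* in 2, and in 42 of 42 cKO members. The rule counts *Igkc* and no lambda gene. With all constant genes and *Jchain* counted at the same share, the Ctrl library stayed at 92 members and the cKO library gained 11 barcodes. The kappa lead in 87 Ctrl members was thus the same under both rules. Which light chain led in the 11 added cKO barcodes was not tested. Lambda constant genes gave 4.32% and 1.19% of light chain constant UMIs. A plasma cell expresses a single heavy and a single light chain. The rule counts *Igha* and *Igkc*, which favors a high share of these within their chain. The shares of the leading genes are therefore given as description. The leading heavy chain gene held at least 90% of heavy chain constant UMIs in 90 of 92 and 42 of 42 members, with medians of 99.8% and 99.8%, and the leading light chain gene did so in 89 of 92 and 42 of 42. The exceptions were 3 Ctrl members. The first, with 16359 UMIs, paired *Ighg2c* with 4491 *Igkc* and 4767 *Iglc1* UMIs. The second, with 15770 UMIs, held 2978 *Igha* and 545 *Ighm* UMIs together with 1811 *Igkc* and 1856 *Iglc3* UMIs, and 8.21% of its UMIs fell on *S100a8* and *S100a9*. The last had 536 UMIs in all. Whether such barcodes hold more than 1 cell was not tested, and no doublets were removed here.

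To follow single antibody genes, UMIs of variable (V) genes were counted. Reads of a 3′ library seldom reach the V exon and V genes form large families of similar copies, so an assignment to a V gene is uncertain. Even so, among members with at least 10 heavy V UMIs, 1 gene held at least 80% of them in 36 of 37 Ctrl members and 22 of 22 cKO members. For light V genes the counts were 44 of 52, or 84.6%, and 12 of 29, or 41.4%. Most of the shortfall involved *Iglv1*, a lambda V gene, which had UMIs in 40 of 87 kappa-led Ctrl members (163 UMIs) and 31 of 42 kappa-led cKO members (376 UMIs). With *Iglv1* left out, the light V shares were 100% in Ctrl and 87.5% in cKO. None of the 9873 and 6676 other barcodes reached 10 V UMIs of either chain.

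**Figure D4:**
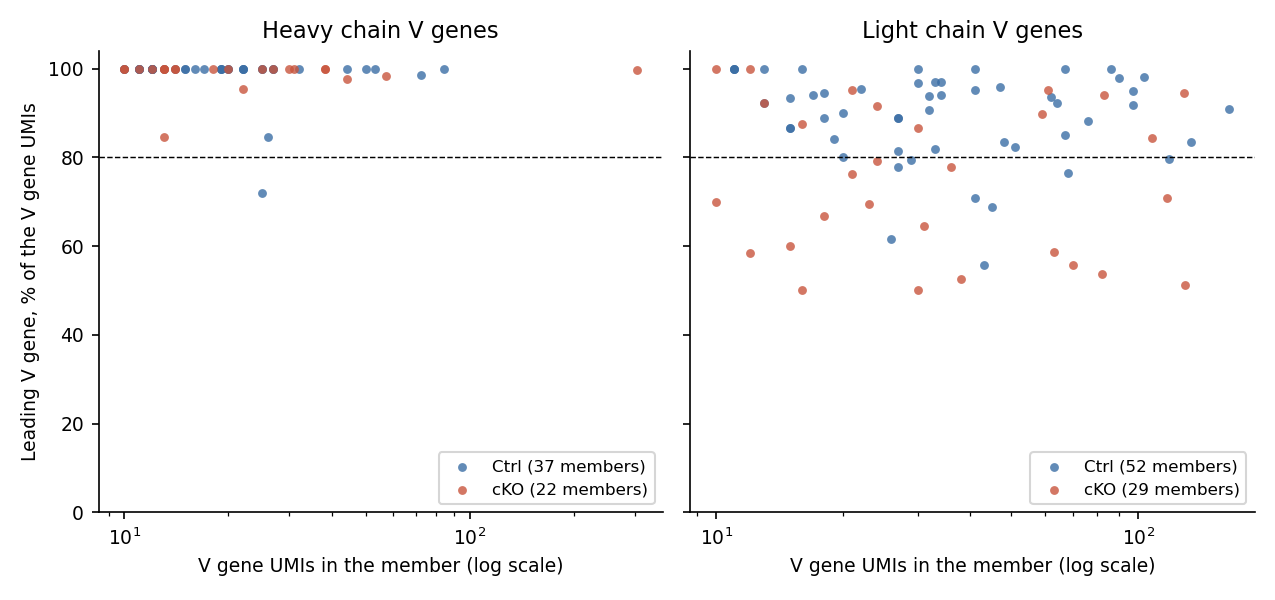
Share of a member's V gene UMIs held by its most abundant V gene (vertical axis, percent) against its V gene UMIs (horizontal axis, log scale) for heavy (left) and light (right) chains, for members with at least 10 such UMIs. All but 1 of the 37 Ctrl members and all 22 cKO members with heavy V UMIs lie above the dashed line at 80%, while light V points spread down to 50%.

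With at least 3 V UMIs required, 38 heavy V genes led in 60 Ctrl members and 15 in 36 cKO members. Pairs of a leading heavy and a leading light V gene numbered 47 in 57 Ctrl members and 22 in 35 cKO members, and 16 and 20 members shared their pair with another. The V genes of the most frequent sets are given as the last 90 bases of their coding sequence in the GRCm38 genome (GENCODE M21), 5′ to 3′ on the coding strand. Capitals run from the codon of the last cysteine, where the third complementarity-determining region begins, to the end of the germline segment. The segments lie at chr12:115920279-115920368 (*Ighv1-81*, minus strand), chr6:68121738-68121827 (*Igkv1-117*, plus), chr12:113769850-113769939 (*Ighv2-9-1*, minus), chr6:67861570-67861659 (*Igkv17-127*, plus) and chr16:19085017-19085106 (*Iglv1*, minus).
Ighv1-81: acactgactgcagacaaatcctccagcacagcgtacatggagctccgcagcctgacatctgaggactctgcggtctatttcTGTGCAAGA
Igkv1-117: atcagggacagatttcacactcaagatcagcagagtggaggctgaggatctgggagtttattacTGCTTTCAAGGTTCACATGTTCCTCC
Ighv2-9-1: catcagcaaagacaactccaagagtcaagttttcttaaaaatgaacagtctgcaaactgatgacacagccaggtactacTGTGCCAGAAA
Igkv17-127: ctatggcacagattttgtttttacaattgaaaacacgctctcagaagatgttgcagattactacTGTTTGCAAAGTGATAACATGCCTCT
Iglv1: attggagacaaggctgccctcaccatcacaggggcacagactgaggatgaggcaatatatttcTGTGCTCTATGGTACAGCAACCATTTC
Without gaps, the heavy segments matched at 20 of 90 positions, the kappa segments at 48 of 90, and *Iglv1* matched *Igkv17-127* at 20 of 90.

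In Ctrl, *Ighv1-81* led in 7 members, all with *Igha*, of 3052 to 32165 UMIs and with 6 to 14 plasma cell genes. *Igkv1-117* was the partner in 6 of them, with 13 to 29 UMIs each. The seventh had 19 *Ighv1-81* UMIs and 59 UMIs of *Igkv3-4* (chr6:70672288-70672377, plus strand), with none of *Igkv1-117*. *Ighv1-81* had 72 UMIs in 8 Ctrl members, 10 UMIs in 10 other Ctrl barcodes and 0 UMIs in the cKO library.

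The cKO library held a larger set. *Ighv2-9-1* led in 10 members, all of them led by *Ighg2b* with 98.9% or more of the heavy chain constant UMIs, and each also carried UMIs of both *Igkv17-127* and *Iglv1*. The deepest, with 16485 UMIs, had 27 UMIs of *Ighv2-9-1*, 30 of *Igkv17-127* and 83 of *Iglv1*, 10 plasma cell genes, and 1.64% of UMIs on *S100a8* and *S100a9*. The other 9 held 1164 to 4303 UMIs and 1 to 8 plasma cell genes, and their *S100a8* and *S100a9* share was 5.87% to 12.2%. A further 3 members, also led by *Ighg2b* and with 5% or more on the neutrophil genes, held 4 *Ighv2-9-1* UMIs, so that 13 of the 18 *Ighg2b* members had this V gene. Beyond the members, *Ighv2-9-1* had 34 UMIs in 19 cKO barcodes and 2 UMIs in the Ctrl library. Whether these 10 barcodes are separate cells of 1 clone, or share RNA from fewer cells, was not tested. Without the members of the most frequent heavy V gene of each library, *Igha* led 89.4% of the Ctrl and 25% of the cKO members, and *Ighg2b* 3.53% (0.734 to 9.97) and 25% (11.5 to 43.4).

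Immunoglobulin RNA was also measured outside the members. *Igha* UMIs occurred in 85.4% of other Ctrl barcodes (27378 UMIs, 0.0389% of all) and 15.4% of other cKO barcodes (1183 UMIs, 0.00186%). Neutrophil barcodes, which should lack *Igha*, had its UMIs in 83.5% and 13.3% of cases, and a share near these is not read as expression. Among the heavy chain constant UMIs of neutrophil barcodes, *Igha* made up 72.9% in Ctrl and 13.1% in cKO, *Ighm* 19.96% and 50.5%, *Ighg2b* 3.52% and 25.2%, and *Ighg2c* 2.50% and 8.17%. *Igha* was thus higher in Ctrl and *Ighg2b* in cKO there as in the members, whereas *Ighm* held a larger part than in the members of the same library (3.47% in Ctrl and 30.8% in cKO). Members themselves held 83.5% and 96.9% of all *Igha* UMIs.

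The secretory machinery was examined with 78 listed genes grouped by the steps an antibody passes. In members these genes held 3.62% of UMIs outside immunoglobulins in Ctrl and 4.19% in cKO, against 1.06% and 0.907% in other barcodes, summed log2 ratios of 1.77 (1.75 to 1.79) and 2.21 (2.18 to 2.24). Of those with at least 10 UMIs in the members, a minimum that genes low in members are less likely to meet, 56 of 75 in Ctrl and 60 of 70 in cKO exceeded a log2 ratio of 1, with medians of 1.38 and 1.94, beside a background of 16.4% and 35.5% of all genes above 1. With all UMIs as the denominator, in which immunoglobulin takes up 51.2% and 58.7% of the members, 22 and 26 genes exceeded it, beside 5.28% and 11.4% of all genes.

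At ER entry, 13 of 18 genes in Ctrl and 14 of 17 in cKO exceeded a log2 ratio of 1. *Sec11c*, a catalytic subunit of the signal peptidase, had 1510.1 CPM in Ctrl members and 1928 CPM in cKO members (log2 2.76 and 3.13), while its paralog *Sec11a* had 69.7 and 90.2 CPM (-0.15, -0.76 to 0.41, and 0.29, -0.46 to 0.95). *Ssr4*, a subunit of the translocon-associated complex, had log2 ratios of 2.45 and 3.14, and *Sec61a1*, the channel itself, 2.03 and 2.64.

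ER folding genes stood out by abundance. *Hsp90b1*, the ER chaperone GRP94, had the most UMIs of the secretory genes in this 3′ assay, which counts transcript ends and not length, at 5300.3 and 5325 CPM (log2 3.29 and 4.10), and *Hspa5*, the chaperone BiP, had 1524 and 1563 CPM (1.77 and 2.39). *Pdia4*, a disulfide isomerase, reached 3.93 and 4.83, and the chaperone-like *Creld2* 4.09 and 4.37. In contrast *P4hb* (0.35 and 0.59) and the lectin chaperone *Canx* (0.26 and 0.65) differed little. Of this list, 13 of 17 and 14 of 17 genes exceeded 1.

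N-glycosylation genes exceeded a log2 ratio of 1 in 8 of 10 cases in Ctrl and 9 of 10 in cKO, with *Krtcap2*, an oligosaccharyltransferase subunit, at 1.99 and 2.20. In ER-associated degradation, which disposes of misfolded chains, 8 of 9 and 8 of 8 genes did so, among them the lectin *Edem1* (3.66 and 3.88), *Sel1l* (3.44 and 3.61) and *Herpud1* (2.93 and 3.79). ER to Golgi transport followed with 9 of 14 and 10 of 13, including *Lman1*, the cargo receptor ERGIC-53 (2.59 and 3.26). Among UPR sensors and effectors 5 of 7 and 5 of 5 exceeded 1. *Creb3l2*, an ER-anchored transcription factor, had the highest ratios at 3.997 and 4.87, followed by the sensors *Atf6* (2.50 and 3.28) and *Ern1* (1.91 and 2.31), while *Atf4* differed by 0.78 and 1.51. *Trib3*, a gene of the stress-driven ATF4 and CHOP branch, had 0 UMIs in the members of both libraries. It was the only gene of this list at 0 UMIs, and the CHOP gene *Ddit3* and *Ppp1r15a* had UMIs in both.

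Promoters (RefSeq, GRCm38.p6, 250 bases before to 50 after the start site) were searched on both strands for short elements. These were the ER stress response element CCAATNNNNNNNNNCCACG, which is bound by ATF6 and XBP1 with NF-Y, and TGACGTGG, the core of the UPR element bound by XBP1. The former occurred in 37 of 27025 promoters, or 0.137%, and in 9 of 67 secretory promoters, or 13.4%. The latter occurred in 193 promoters, or 0.714%, in 2 of 67 secretory promoters and in 2 of 13 plasma cell promoters. The secretory genes were listed by their known roles, so these shares describe the list and not the members. Whether the elements act in the members was not tested. A match is a description of these letters and not evidence of binding. 4 promoters of strongly enriched or abundant genes are shown on the gene's strand, with the matched letters in capitals: *Derl3* (chr10:75893221-75893280), *Creld2* (chr15:88819499-88819558), *Hspa5* (chr2:34772004-34772063) and, for the shorter element, *Txndc5* (chr13:38528019-38528078, minus strand of the genome).
Derl3: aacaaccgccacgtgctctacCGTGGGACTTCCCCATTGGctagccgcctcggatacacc
Creld2: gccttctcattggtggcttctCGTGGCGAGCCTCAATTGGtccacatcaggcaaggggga
Hspa5: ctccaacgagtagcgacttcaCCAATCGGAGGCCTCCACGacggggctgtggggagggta
Txndc5: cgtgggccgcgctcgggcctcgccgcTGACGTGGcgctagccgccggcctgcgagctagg
In *Derl3* and *Creld2* the element reads on the opposite strand of the gene, and in *Hspa5* and *Txndc5* on the same strand. *Canx*, whose members differed little from other barcodes, also held the longer element.

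To compare cKO with Ctrl within the members, CPM ratios were taken for the 4177 genes with at least 20 UMIs. As background, 3.33% of them had a log2 ratio above 1 and 15.4% below -1, with a median of -0.20, and the same genes had a median of -0.40 in the other barcodes. The plasma cell genes stood at similar levels. None of 14 lay beyond 1 in either direction, and their sum differed by 0.34 (0.27 to 0.41). *Mzb1* was highest at 0.94 (0.80 to 1.08), with 2234 and 4278 CPM, and *Prdm1* lowest at -0.96 (-1.59 to -0.37), with 109 UMIs in 42 Ctrl members and 30 UMIs in 14 cKO members. *Xbp1* differed by 0.33 (0.19 to 0.48). The latter value was -0.025 at a share of 50% and -0.027 with every member weighted equally.

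Secretory genes also stayed close, with 2 of 72 above 1, none below -1 and a median of 0.14. The 2 genes were *Ssr4* (1.06, 0.88 to 1.23) and *Dnajb9*, a co-chaperone of BiP (1.14, 0.57 to 1.71). Their sum differed by 0.21 (0.17 to 0.25) and turned to -0.065 at a share of 50%, to -0.015 over all UMIs and to -0.059 within the members led by *Igha*.

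**Figure D5:**
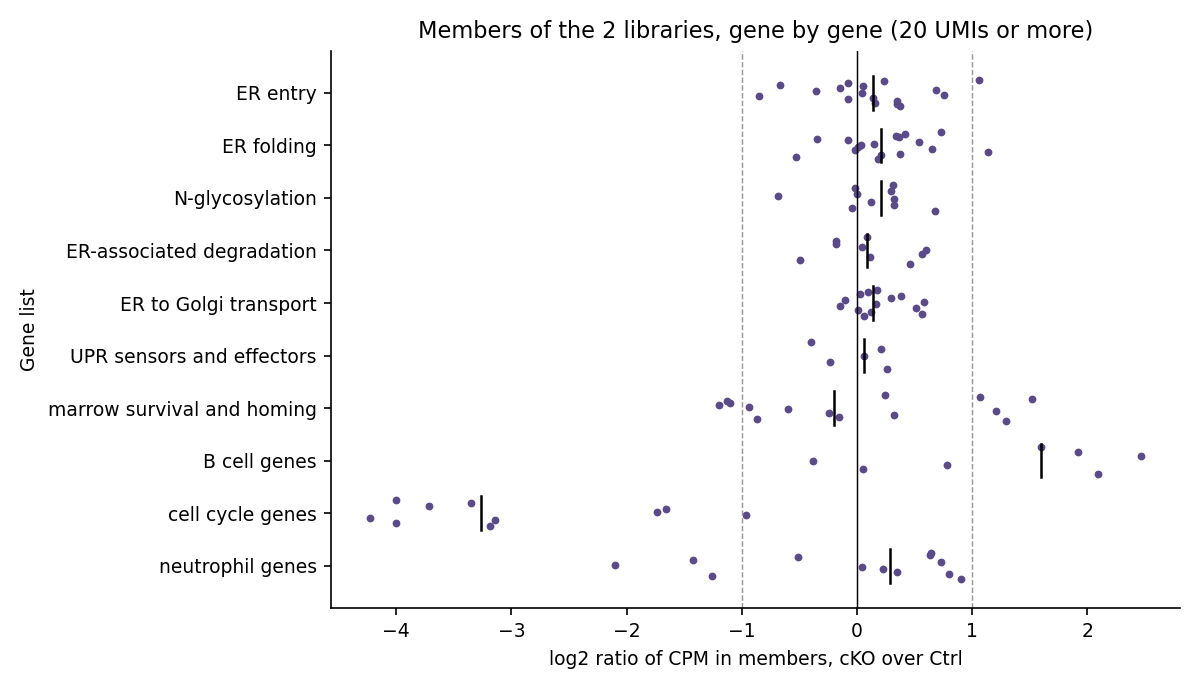
Log2 ratio of CPM in cKO members over Ctrl members (horizontal axis) for each gene with at least 20 UMIs, by gene list (vertical axis, points spread for visibility), with the list median as a bar and dashed lines at -1 and 1. Secretory lists center near 0, most B cell genes lie to the right and cell cycle genes to the left.

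B cell genes were higher in cKO members, with 4 of 7 above 1, none below -1 and a sum of 1.57 (1.48 to 1.67). *Cd74*, the invariant chain of MHC class II, had 701 UMIs in 73 Ctrl members (1880.3 CPM) and 1601 UMIs in 40 cKO members (8020 CPM), a log2 ratio of 2.09 (1.96 to 2.22). The class II genes *H2-Aa* and *H2-Ab1* differed by 2.47 (1.84 to 3.14) and 1.92 (1.52 to 2.33), and *Ms4a1*, which encodes CD20, by 1.60 (0.22 to 3.08) on 8 and 13 UMIs. *Cd79a*, a signaling chain of the B cell receptor, did not differ beyond counting error (0.05, -0.18 to 0.29). *Pax5*, *Ciita* and *Fcer2a*, which mark B cells before the plasma cell stage, had 0 UMIs in the members of both libraries. In the other barcodes *Cd74* was lower in cKO, at 58.7 against 157 CPM.

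The *Cd74* level was also taken by isotype. It was 1268 CPM in the *Igha* members of Ctrl and 3712 CPM in those of cKO, and 11878 CPM in the *Ighm*, 7133 CPM in the *Ighg2b* and 9209 CPM in the *Ighg2c* members of cKO. In Ctrl the *Ighg2b* and *Ighg2c* members also stood high, at 9278 and 5068 CPM, although 105 of 106 UMIs of the former came from 1 member, while the 2 *Ighm* members had 2799.9 CPM (51 UMIs). Within the *Igha* members alone, 83 in Ctrl and 8 in cKO, the log2 ratio of *Cd74* was 1.55 (1.31 to 1.79) and that of *H2-Ab1* 0.92. At a share of 50% the *Cd74* ratio was 0.96.

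Cell cycle genes showed the opposite direction. Their summed level was 1942 CPM in Ctrl and 386 CPM in cKO members, a log2 ratio of -2.33 (-2.69 to -1.99), and 9 of 10 genes lay below -1. *Mki67* had 149 UMIs in 45 Ctrl members and 24 UMIs in 12 cKO members (-1.73, -2.42 to -1.10), and *Top2a* 90 UMIs in 33 and 3 UMIs in 3. A single Ctrl member held 31 of these 90 *Top2a* UMIs, and 36 of the 149 *Mki67* UMIs came from 1 member. Other barcodes carried more of these genes than members did, 3258 CPM in Ctrl and 2210 CPM in cKO. Within *Igha* members the ratio was -3.66 (628 and 10 UMIs), and without the 5 deepest members of each library it was -1.998. How much of it came from the RNA of other cells was not tested.

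Of 14 genes of marrow survival and homing, 4 lay above 1 and 3 below -1, beside the 3.33% and 15.4% of all genes. *Ly6a*, a surface marker of long-lived plasma cells and of stem cells, had 920.0 and 2639.8 CPM (1.52, 1.32 to 1.72), and within *Igha* members 747 and 3380 CPM (2.18, 1.90 to 2.45). *Bcl2*, a survival gene, differed by 1.30 (0.38 to 2.24), *Cxcr4*, the receptor that retains plasma cells in marrow, by 1.21 (0.21 to 2.22) and *Ly6c2* by 1.07. Within *Igha* members *Bcl2* differed by 2.31 (1.13 to 3.49), while *Cxcr4* (-0.10, on 16 and 3 UMIs) and *Ly6c2* (-0.22, -0.72 to 0.24) turned, and 1 member held 166 of the 341 *Ly6c2* UMIs of the cKO *Ighg2b* members. The integrin genes *Itga4* (-1.19, -1.73 to -0.69) and *Itgb7* (-1.12, -2.08 to -0.26), which pair as the gut-homing integrin, were lower in cKO. *Itgb1*, the last of the 3 below -1, had an interval that included 0 (-1.10, -2.43 to 0.05). *Ccr10*, a mucosal homing receptor of IgA plasma cells, had 58 UMIs in 35 Ctrl members and 17 UMIs in 7 cKO members. Its log2 ratio was -0.87 (-1.74 to -0.07) over all members and -0.04 within *Igha* members. *Cd28*, a costimulatory receptor, differed by -0.15.

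The highest single ratios were of uneven weight. *Prg2*, known as a granule protein gene of eosinophils, had 92 UMIs in 40 Ctrl members and 335 UMIs in 34 cKO members, 247 and 1678 CPM (2.77, 2.43 to 3.11). It was at 853 CPM in the *Igha*, 1849.7 in the *Ighm*, 2023 in the *Ighg2b* and 4415 CPM in the *Ighg2c* members of cKO. In other barcodes it was lower in cKO, at 5.37 against 22.7 CPM. Of the other eosinophil genes, *Epx* and *Ear1* had 1 UMI and 0 UMIs in all 134 members. *Ear2* had UMIs in both libraries and *Prg3* in cKO only. With *Prg2*, all 9 listed eosinophil and basophil genes had 112 UMIs in Ctrl and 340 UMIs in cKO members. *Chst1*, a sulfotransferase gene, had 7 UMIs in 3 and 52 UMIs in 17 members (3.79, 2.65 to 5.18), 31 of the 52 in *Ighm* members. *Lag3* (4.22) and *Gm8369* (3.64) rested on 1 cKO member each, with 25 of 30 and 17 of 20 UMIs. *Wfdc17* (2.78) had 56 of 59 cKO UMIs in *Ighg2b* members and turned to -0.61 without the members of the most frequent heavy V genes, and it differed by 2.76 in the other barcodes.

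The lowest ratios belonged to *Top2a* (-4.01), *Car2* (-3.78), *Pclaf* (-3.72), the histone gene *Hist1h1b* (-3.72, with 89 of 123 Ctrl UMIs in 1 member) and *Hba-a2* (-3.68). *Map4k4* itself had 21 UMIs in 15 Ctrl members (56.3 CPM) and 7 UMIs in 6 cKO members (35.1 CPM), a log2 ratio of -0.68 (-2.16 to 0.60). Over all members a difference in the targeted gene was not detectable at this depth. Within *Igha* members, a subset added after seeing the data, *Map4k4* had 20 UMIs in Ctrl (63.6 CPM, exact upper limit 98.2 CPM). The 8 of cKO had 0 UMIs, with an exact upper limit of 58.3 CPM, and a difference was not tested. Counts per gene do not show which exons were read, so they do not check the deletion.

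Markers of other marrow cells were measured in the same members. The 12 neutrophil genes, led by *S100a9*, summed to 60513 CPM in Ctrl and 92172 CPM in cKO members, against 159778 and 265879 CPM in other barcodes. All 12 lay below a log2 ratio of -1 in both. Between libraries their sum differed by 0.61 in members, with a median of 0.29, 0 of 12 genes above 1 and 3 below -1. In *Igha* members they differed by 1.201, but 1 cKO member held 7651 of 8439 of these UMIs and 1 Ctrl member 6114 of 18245, and without both the value was -1.02. Erythroid genes, led by *Hba-a2* in Ctrl, summed to 1148 and 120.2 CPM (-3.26, 5 of 5 below -1), with *Alas2* and *Klf1* among those at 0 UMIs in cKO members. Monocyte and macrophage genes summed to 346 and 35.1 CPM (-3.30, 3 of 3 below -1) and were led by *Ms4a6c* in Ctrl. T and NK genes summed to 85.8 and 75.1 CPM, led by *Nkg7* in Ctrl and *Trac* in cKO, with *Cd3e* and *Klrb1c* at 0 UMIs. Stem and progenitor genes summed to 233 and 130.2 CPM, led by *Cd48*. Early B genes summed to 295 CPM in Ctrl and 220.4 CPM in cKO members, against 187 and 8.71 CPM in other barcodes (0.65, 0.37 to 0.93, and 4.66, 4.18 to 5.11). In cKO members *Vpreb3* was the only 1 of the 7 genes with UMIs, and *Rag1* and *Rag2* were at 0 UMIs in both libraries. Eosinophil and basophil genes summed to 300.4 and 1703 CPM, led by *Prg2*. Plasmacytoid dendritic cell genes summed to 1006 and 917 CPM, led by *Tcf4*, with *Siglech* at 0 UMIs, and interferon-stimulated genes to 802 and 591 CPM (-0.44), with *Ifit1* at 0 UMIs. Within *Igha* members the last list turned to 0.16 (-0.29 to 0.59), and early B genes turned from -0.42 (-0.96 to 0.10) over all members to 0.73 (0.10 to 1.32). The part of background RNA and of barcodes with more than 1 cell in these levels, and in the differences above, was not tested.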

How the data were processed

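Droplet-based 3′ single-cell RNA-seq (BMKMANU DG1000) of mouse bone marrow was analysed in 1 Ctrl and 1 cKO library. The values used are UMI counts, whole numbers for each gene in each barcode, as deposited by the authors without normalization. Cell Ranger 5.0.0 and mm10 (GRCm38) are named in the submitters' processing notes. A barcode was retained if it showed 200 to 9000 genes and its mitochondrial share did not exceed 30%. The study also removed doublets, which was not done here, because the sources used here do not tie its calls to these barcodes.

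UMIs were summed over members and over other barcodes of each library. CPM values used UMIs outside 392 immunoglobulin genes, *Jchain* and a pair of unnamed loci that overlap them. Log2 ratios carry exact binomial 95% intervals and shares Clopper-Pearson 95% intervals. For counts and medians of ratios, and for single genes under the alternatives, sums under 3 UMIs were raised to a floor of 3 UMIs over the group. With equal weight per member only sums of 0 were. Ratios between libraries needed 20 UMIs over both and ratios within a library 10 UMIs in the members, and a log2 ratio beyond 1 was counted. Neutrophil barcodes had at least 5% of UMIs on *S100a8* and *S100a9*. Cells were not treated as replicates and no test was run.

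The members and all gene lists were chosen with earlier results of these data known. Of the listed genes, *Ero1b*, *Mx1* and *Vimp* (an older name of *Selenos*) were not matched in the files. Named genes are the markers of the rule, all constant genes, list members with at least 20 UMIs, the 10 highest and 5 lowest ratios of members over other barcodes among genes with at least 50 CPM in the members of both libraries (ranked by the lower and by the higher of the 2 ratios), the 5 highest and 5 lowest ratios of cKO over Ctrl with at least 100 CPM in 1 library, and *Map4k4*. The genes given by name from lists are examples, and V genes follow from the most frequent sets. Alternatives were other shares, UMI floors and mitochondrial ceilings, all constant genes in the rule, other denominators and weights, a floor of 50 UMIs, and leaving out the deepest members. Added after seeing the data were leaving out neutrophil-rich members or the most frequent V sets, *Igha* members alone, all constant genes at 50%, *Igha* members without the 1 richest in neutrophil RNA, and light V genes without *Iglv1*. Sequences and coordinates came from GENCODE M21 on GRCm38 and RefSeq promoters of GRCm38.p6. The ratios and intervals were tried on simulated counts without variation between members, so the effect of uneven members on them was not tested. The calculations used Python 3.11.15, numpy 2.4.6, scipy 1.17.1, pandas 2.3.3 and matplotlib 3.10.9.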

Additional observations from a re-analysis of the deposited data

Results flagged for a closer look

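Signal appeared in data outside the main measurement. Of the 154 cKO barcodes left out by the limits on detected genes and mitochondrial share, 1 held at least 10% of its UMIs on *Jchain*, *Igkc* and *Igha*, while 0 of the 255 Ctrl barcodes left out did so.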

How the results depend on the processing

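No paired analysis was possible because each group has 1 library. Members numbered 47 (Ctrl) and 10 (cKO) at a share of 50%, where *Igha* led 95.7% and 80% of them. With all UMIs as the denominator, 22 (Ctrl) and 26 (cKO) secretory genes exceeded a log2 ratio of 1 over other barcodes. The shares over all genes were 5.28% and 11.4%. The 139 genes above 1 for cKO over Ctrl became 70 at a share of 50%, 79 over all UMIs, 243 with equal weight per member and 47 with at least 50 UMIs, which tests fewer genes. The 645 genes below -1 became 394 at a share of 20%, 246 at 50%, 171 with at least 50 UMIs and 379 in *Igha* members. The summed secretory ratio of 0.21 became 0.27 at a share of 20%, -0.065 at 50%, 0.17 with all constant genes, -0.015 over all UMIs, 0.12 with equal weights, 0.28 without the 5 deepest members, 0.41 without neutrophil-rich members, 0.29 without the most frequent V sets and -0.059 in *Igha* members. *Xbp1* turned to -0.025 at a share of 50% and to -0.027 with equal weights, and *Wfdc17* to -0.61 without the most frequent V sets and to -0.0090 or lower in *Igha* members, where cKO had 0 UMIs and was set to the floor of 3. Light V shares became 100% (Ctrl) and 87.5% (cKO) without *Iglv1*, and *Igha* held 0.0372% of UMIs in Ctrl neutrophil barcodes defined at 10%. The cause of these shifts was not tested. Neutrophil genes in *Igha* members turned from 1.201 to -1.02 without the member with the most of their UMIs in each library. The other 118 values for summary results and 178 of 225 for single genes kept their direction and stayed within their interval or within 1.5 times. With 92 and 42 members, counts limit most single genes, and the lower share sets which shallow barcodes enter.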
